A study of Mus musculus with 52 samples.

Results

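Transcripts of 9 genes of the Bcl2 family and its close relatives were followed in single daughter cells of mouse erythroid progenitors. The genes were taken by their symbols, Bcl2l1, Mcl1, Bcl2, Bcl2l2, Bcl2l11, Bad, Bid, Bak1 and Bnip3l, and all 9 were present among the 49466 genes of both count tables. The founders were BFU-E cells (burst-forming unit-erythroid, an early progenitor of red cells) from the fetal liver of C57/Bl6J mouse embryos at day 14.5, depleted of cells with lineage, Sca-1, CD16/32, CD41 and Ter119 antigens and sorted by Kit (CD117), CD71 and CD24 with a stain for dead cells. Each founder was kept alone in a well for 16 hours, untreated or with the synthetic glucocorticoid dexamethasone at 100 nM, and founders that had divided once were taken. The 52 libraries of polyadenylated RNA came from the daughters of 13 untreated and 13 dexamethasone-treated founders. A founder and its well, called a pair, was the replicate. The labels name no animal, so founders may share an embryo or litter, and the p-values for treatment measure only the spread between founders. The p-values for differences between founders are set against the spread between the daughters of a founder.

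Proteins of this family decide at the outer membrane of the mitochondrion whether a cell undergoes apoptosis. Bcl-xL (from Bcl2l1), Mcl-1, Bcl-2 and Bcl-w (from Bcl2l2) hold the pore-forming proteins Bax and Bak in check and are called guards here, while the BH3-only proteins Bim (from Bcl2l11), Bad and Bid counter the guards or activate the pore directly. In red cell development Bcl-xL is known for keeping late erythroblasts alive downstream of erythropoietin, and Nix (from Bnip3l) is known for the clearance of mitochondria from reticulocytes.

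Before any comparison, 2 kinds of library stood apart. Exactly 4 libraries, all untreated, held fewer than 100000 counts, and their 3 pairs (4, 7 and 12) were left out, which left 10 untreated pairs (405058 to 5606500 counts per library) and 13 dexamethasone pairs (210383 to 4176347). The deposited label calls every founder erythroid, but both daughters of 5 pairs went against it. In these 10 cells 6 myeloid genes (Mpo, Prtn3, Elane, Ctsg, Ms4a3 and Cebpa) summed to 5921 to 41456 CPM (counts scaled to the total of each library), and 6 erythroid genes (Gata1, Klf1, Epor, Rhag, Car2 and Ermap) to 4.72 to 798 CPM. The 36 cells of the other 18 pairs held 1355 to 7686 CPM of the erythroid genes and 0 to 5675 CPM of the myeloid genes, with a median of 10.9. The highest of these was cell 1 of dexamethasone pair 12, the shallowest library, which held 4 erythroid and 3 myeloid genes at 10 CPM or more, and the next highest cell held 607 CPM. In the other direction, cell 2 of dexamethasone pair 10 held 5 of the erythroid genes beside all 6 myeloid genes. The pairs are called myeloid-like (untreated 9 and 10, dexamethasone 6, 7 and 10) and erythroid-like (8 untreated, 10 dexamethasone), and 0 pairs were mixed. Markers of lymphoid cells, macrophages, mast cells, hepatocytes and endothelium reached 10 CPM for 3 or more genes in 0 of 46 cells. At least 3 of 8 megakaryocyte genes reached it in 9 erythroid-like cells and 1 myeloid-like cell. At least 3 of 7 stem cell genes did in 5 myeloid-like cells. The summed megakaryocyte genes ran up to 1092 CPM in erythroid-like and 677 CPM in myeloid-like cells, with Ppbp at 0 throughout, and the summed stem cell genes up to 432 and 1912 CPM, with Mecom at 0. Sums of other lists reached 1154 CPM (mast cells), 176 (endothelium) and 27.9 (macrophages) in myeloid-like cells. In erythroid-like cells the hepatocyte sum reached 115 CPM. Their part in the results below was not tested.

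Reads of the members came in an all-or-none manner: a cell usually held a high level of a member or almost none. A member was called detected in a cell at 10 CPM or more, which in 1 of 46 libraries lay below the level of 3 counts. A cell held a median of 3.5 of the 9 members, from 0 in the shallowest library (dexamethasone pair 12, cell 1, 210383 counts) to 7. Bnip3l was detected in 38 of 46 cells, Bid in 33, Mcl1 in 31, Bad in 28, Bcl2l1 in 16, Bcl2 in 9, Bak1 in 3, and Bcl2l2 and Bcl2l11 in 2 each. A cell without reads of a member may still hold its transcript, since the capture of single molecules was not measured.

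**Figure D1:**
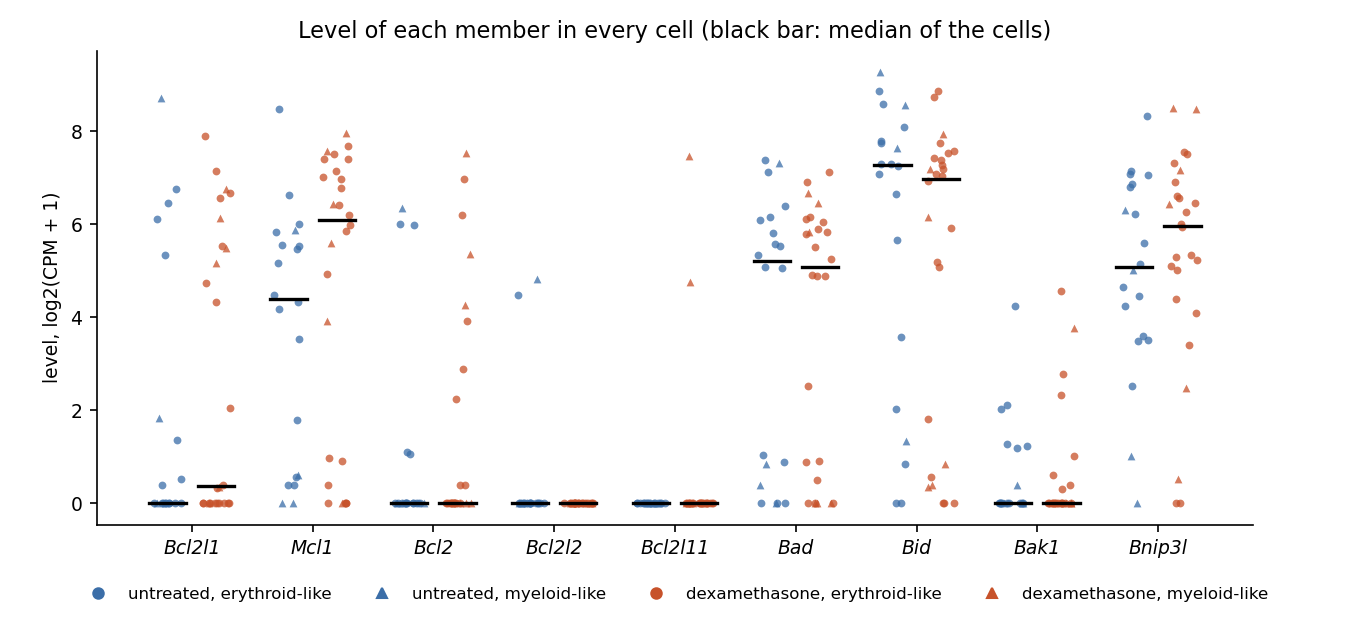
Level of each member in each of the 46 cells as log2(CPM + 1), by treatment (colour) and lineage class (circles erythroid-like, triangles myeloid-like), with the median of the cells as a black bar. Bid and Bnip3l have high medians in both treatments, and Bcl2, Bcl2l2, Bcl2l11 and Bak1 have medians at 0.

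Per unit of length, Bid stood highest. In TPM (counts divided by exon length and scaled to a common total, with even coverage assumed, which the sources do not state), the mean over 23 pairs was 116 ± 88.0 (SD) for Bid, 58.7 ± 56.9 for Bnip3l, 54.8 ± 53.5 for Mcl1 and 48.2 ± 37.8 for Bad. Bcl2l1 followed with 22.3 ± 35.8 TPM, Bcl2 with 4.62 ± 8.21, Bak1 with 1.90 ± 3.67, Bcl2l11 with 1.63 ± 6.92 and Bcl2l2 with 0.667 ± 2.21. No neighbours in this order differed in their means by more than the larger of their SDs. Overlapping genes could add reads to some members, since the sources used here do not give the strand setting of the counting. Exons shared with another gene made up 25.5% of Bak1 (Ggnbp1), 20.5% of Bad (Gpr137), 17.7% of Bid (Bcl2l13), 13.3% of Bcl2l2 (Gm20521) and 6.09% of Bcl2 (D630008O14Rik), and 0.0% of Bcl2l1, Mcl1, Bcl2l11 and Bnip3l.

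Of the guards, Mcl1 (ENSMUSG00000038612, GRCm38 chr3:95658788-95663176, plus strand) was the most widely detected. Its protein turns over quickly and is needed by many blood progenitors. Mcl1 was detected in 13 of 20 untreated cells and 18 of 26 dexamethasone cells, and its pair means ran from 0.254 over a median of 28.4 to 206 CPM untreated and from 0 over 66.6 to 219 CPM with dexamethasone. The ranges overlapped almost entirely although the median was higher with dexamethasone. The log2 fold change was 1.07 ± 0.78 (SE), and edgeR's quasi-likelihood test gave p = 0.183 and, adjusted over all genes, 1.00. The change was smaller than 2 SE and was not called. It ran from 0.83 to 1.56 when 1 pair at a time was left out.

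Bcl2l1 (ENSMUSG00000007659, chr2:152780668-152831728, minus strand) encodes the guard best known from erythroblasts. Of the promoter windows that RefSeq gives for the members (GRCm38.p6, 250 bases before to 50 after an annotated start), only 1 held a match to the motif of the erythroid factor Gata1, and it is shown because Gata1 is among the genes that set the lineage classes apart. It lies at chr2:152828513-152828542 on the minus strand, in 1 of 3 Bcl2l1 windows, with the match in capitals:
Bcl2l1 start region: attgtgacccaaAGATAAagagagcagagg
The letters searched for Gata1 were AGATAA or TGATAA on either strand, which 18.61% of all 32851 windows hold. TTCNNNGAA for Stat5 (8.3% of windows) and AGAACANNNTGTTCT for the glucocorticoid receptor (0.0091%) were found in 0 of the 12 windows of 8 members; Bnip3l had no window. The window with the match belongs to a start inside Bcl2l1, and its upstream bases overlap an exon of that gene. The Bcl2l1 window at the outer start of the gene held no match. A match describes letters and no binding was measured.

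Bcl2l1 itself was nearly absent from most cells and high in a few. It was detected in 5 of 20 untreated cells, 1 in each of 5 pairs, and in 11 of 26 dexamethasone cells from 7 pairs. Pair means ran from 0 over a median of 10.3 to 210.0 CPM untreated and from 0 over 11.1 to 189 CPM with dexamethasone. The highest untreated value came from 1 cell of the myeloid-like pair 10 (417 CPM), and the highest with dexamethasone from the erythroid-like pair 8 (141 and 237 CPM). The log2 fold change was -0.34 ± 1.49 (SE; edgeR p = 0.820, adjusted 1.00), and it was 1.08 without untreated pair 10, so that 1 pair set its sign.

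Bcl2, the founding member of the family, and Bcl2l2 were rarer. Bcl2 (ENSMUSG00000057329, chr1:106538178-106714274, minus strand) was detected in 3 of 20 untreated and 6 of 26 dexamethasone cells, with pair means up to 40.4 and up to 102 CPM. Bcl2l2 (ENSMUSG00000089682, chr14:54883377-54888234, plus strand) was detected in 1 cell each of the untreated pairs 2 and 9, at 21.3 and 27.3 CPM, and had 0 reads in all 26 dexamethasone cells, which, counted over the 13 founders, allows a share of up to 23.1% of pairs with a read. Both lay under the filter on low counts of the treatment test.

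Among the pro-apoptotic members Bid and Bad were common, and Bcl2l11 and Bak1 were rare. Bid (ENSMUSG00000004446, chr6:120891930-120916853, minus strand), which links death receptors to the mitochondrion once caspase 8 cuts it, was detected in 15 of 20 untreated and 18 of 26 dexamethasone cells. Its pair means ran from 1.54 over a median of 146 to 423 CPM untreated and from 17.7 over 106 to 329 CPM with dexamethasone. Bad (ENSMUSG00000024959, chr19:6941861-6951899, plus strand), whose product is silenced by growth factor kinases, was detected in 12 of 20 and 16 of 26 cells. Its pair means ran from 0.549 over 46.3 to 99.6 CPM and from 0 over 28.6 to 129 CPM. Both genes overlapped between treatments over most of their range, with log2 fold changes of -0.41 ± 0.61 for Bid and -0.10 ± 0.89 for Bad (SE; edgeR p = 0.511 and 0.913, adjusted 1.00 for each). The sign for Bid was the opposite in erythroid-like pairs alone (0.16).

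Bcl2l11 (ENSMUSG00000027381, chr2:128126038-128162547, plus strand), the source of Bim, was found in 2 cells. Both were dexamethasone-treated and myeloid-like, cell 1 of pair 6 at 178 CPM (226 reads) and cell 2 of pair 10 at 26.0 CPM, and in each case the sister cell had 0 reads. The 44 cells without it had 0 reads each. Counted over founders, this allows a share of up to 30% of pairs with a read for the 10 untreated pairs and up to 16.7% for the 18 erythroid-like pairs. Bak1 (ENSMUSG00000057789, chr17:27019810-27029009, minus strand), one of the pore-forming proteins, reached 10 CPM in 1 untreated and 2 dexamethasone cells, with at most 22.7 CPM. In 10 further cells it had 1 to 9 reads.

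With genes of low counts kept in the test, 113 of 15416 genes passed (0.733%), and 0 of 9 members. There the adjusted p was 0.0759 for Bcl2l11, 0.0749 for Bcl2l2, and 1.00 for Bcl2 and Bak1. The fitted fold changes of Bcl2l11 and Bcl2l2 rest on a group with 0 reads throughout and on 2 cells each, and are not given.

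Bnip3l (ENSMUSG00000022051, chr14:66985239-67008877, minus strand) was the most widely detected member, in 17 of 20 untreated and 21 of 26 dexamethasone cells. Its pair means ran from 0.508 over a median of 65.2 to 215 CPM untreated and from 15.7 over 68.4 to 359.7 CPM with dexamethasone. The medians were close, and the highest pair, dexamethasone 7, was myeloid-like with 357 and 363 CPM in its daughters. The log2 fold change was 0.52 ± 0.68 (SE; edgeR p = 0.448, adjusted 1.00), and it was -0.0013 in erythroid-like pairs alone.

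Thus 0 of the 5 members tested for dexamethasone passed, as did 0 of 7190 genes (0.0%) in edgeR, with 71 genes at an unadjusted p under 0.05. DESeq2 also called 0 genes (173 at p under 0.05), and so did limma (304). In simulated counts for these pairs, the edgeR fit recovered 14% of genes changed 4-fold and 66% of those changed 16-fold. The absence of calls therefore does not show that no gene changed. The median log2 fold change was -0.10 over the 5 members and 0.02 over all genes. In the related lists 0 of 5 other family members tested, 0 of 22 genes of the apoptosis machinery, 0 of 8 mitophagy genes and 0 of 12 upstream regulators passed. The smallest p in these lists belonged to Bclaf1 (log2 fold change -0.69 ± 0.29, SE, p = 0.0230) and to Vdac2, a channel of the outer mitochondrial membrane (-0.44 ± 0.19, p = 0.0307), each with an edgeR adjusted p of 1.00. Bax, the partner of Bak, had 0.66 ± 0.39 (p = 0.0998). The smallest p of the upstream list was that of the survival kinase Pim1 (-0.94 ± 0.64, p = 0.156) and of the mitophagy list that of the receptor Fundc1 (1.49 ± 1.11, p = 0.190). By the well names in the labels, plate columns 1, 2 and 5 held untreated pairs alone, columns 3, 4 and 7 dexamethasone pairs alone, and column 6 held 1 pair of each. Treatment and plate column therefore cannot be told apart, in these values or in any other comparison of the treatments given here. Columns 1 to 4 and 5 to 7, joined so that each set held both treatments, differed in sign for Bcl2l1 (1.47 ± 1.78 and -2.10 ± 2.70), Bid (0.25 ± 0.72 and -0.69 ± 0.96) and Bad (-0.26 ± 0.97 and 0.06 ± 1.78), and kept it for Mcl1 (1.21 ± 0.65 and 0.68 ± 1.81) and Bnip3l (0.60 ± 0.76 and 0.55 ± 1.40). These differences between column sets were not tested.

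**Figure D2:**
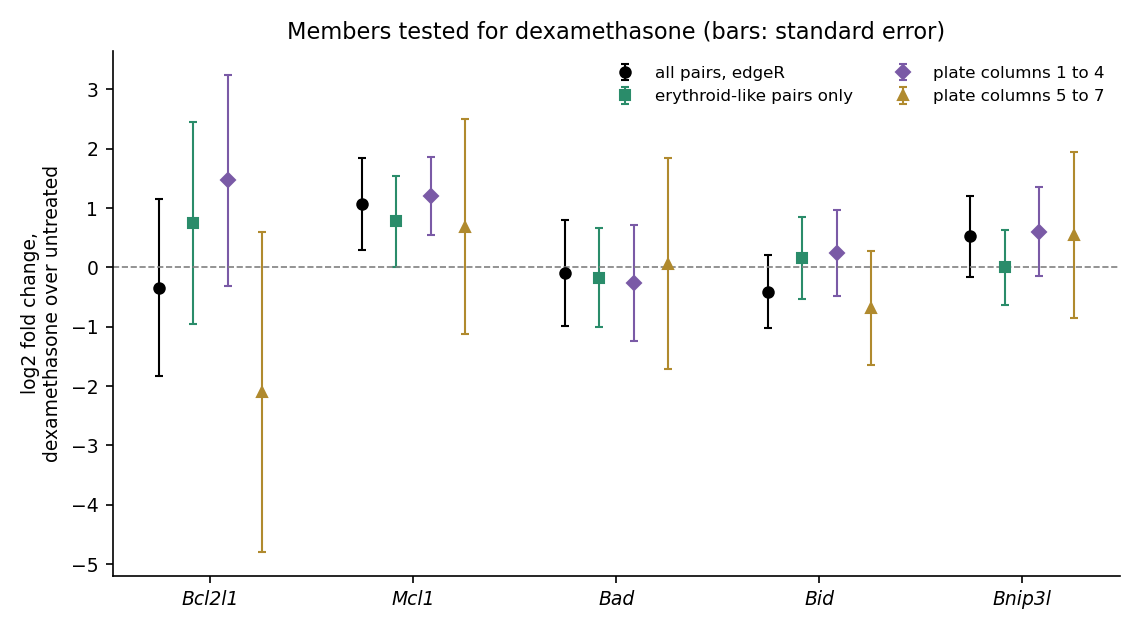
Log2 fold change of the 5 tested members, dexamethasone over untreated, with standard errors, in all 23 pairs, in the 18 erythroid-like pairs and within each set of plate columns. Mcl1 lies above 0 in each of these 4 fits, and the other members lie on both sides or at 0.

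Daughters of 1 founder were compared next, as the design pairs them. Where a member was detected in a pair at all, it was often seen in 1 daughter only: 11 of 21 pairs for Mcl1 (52.4%), 10 of 19 for Bad (52.6%), 11 of 22 for Bid (50%), 8 of 12 for Bcl2l1 (66.7%) and 7 of 8 for Bcl2 (87.5%). The median over all 8015 genes tested was 52.4%, so Mcl1, Bad and Bid lay close to it. Bnip3l was detected in both daughters in 16 of 22 pairs and in 1 daughter in 6 (27.3%). Genes were not matched by level for this share.

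On the log2(CPM + 1) scale the mean absolute difference between sisters was 2.14 ± 2.71 (SD, n = 23 pairs) for Bcl2l1, against 3.19 between cells of different founders of the same treatment. For Bnip3l these values were 2.14 ± 2.04 and 2.57, for Bad 2.87 ± 2.65 and 3.17, for Mcl1 3.17 ± 2.64 and 3.26, and for Bid 3.76 ± 3.13 and 3.50. Sisters were thus closer than cells of different founders by 1.05 for Bcl2l1 and by 0.08 for Mcl1, and over all pairs not closer for Bid, while the median over all genes was 0.29. Cells of different founders included both lineage classes, while sisters always shared a class, and the part of lineage was not tested. The gap between founders and sisters varied by treatment in both directions. In untreated and in dexamethasone pairs it was -0.15 and 1.91 for Bcl2l1, -0.65 and 1.05 for Bad, -0.23 and 0.27 for Mcl1, 0.49 and -0.83 for Bid, and 1.14 and -0.13 for Bnip3l. The 2 treatments thus differed in sign for each of these 5 members, but not for Bcl2 (0.17 untreated and 0.39 with dexamethasone). These differences between treatments were not tested.

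Differences between founders beyond those between sisters were called in edgeR for 271 of 8015 genes (3.38%) and for 0 of 6 members tested. Bcl2l1 came nearest (p = 0.0169, adjusted 0.184), then Bcl2 (p = 0.0463, adjusted 0.249). Without the myeloid-like pairs Bcl2l1 had p = 0.0545 (adjusted 0.416), and Bcl2 lay under the filter. The adjusted p was 0.752 for Bnip3l, 0.957 for Bad, 0.995 for Mcl1 and 1.00 for Bid. At an unadjusted p under 0.05 the test held 1571 genes, and limma called 651. Against founders of the same plate column alone, edgeR called 93 genes and 0 members, with p = 0.0232 (adjusted 0.310) for Bcl2l1. In the related lists Bax passed among 5 other family members (edgeR adjusted p = 0.000717), and Klf1 and Gata1, both markers of the lineage classes, passed among 12 upstream regulators (adjusted p = 3.69e-06 and 0.000199), while 0 of 23 apoptosis machinery genes and 0 of 9 mitophagy genes did. Htra2, a mitochondrial protease, had the smallest p of the machinery (adjusted 0.0954). In erythroid-like pairs alone the edgeR adjusted p was 0.000979 for Bax, 0.00193 for Klf1 and 0.602 for Gata1, so that the call of Gata1 was lost.

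**Figure D3:**
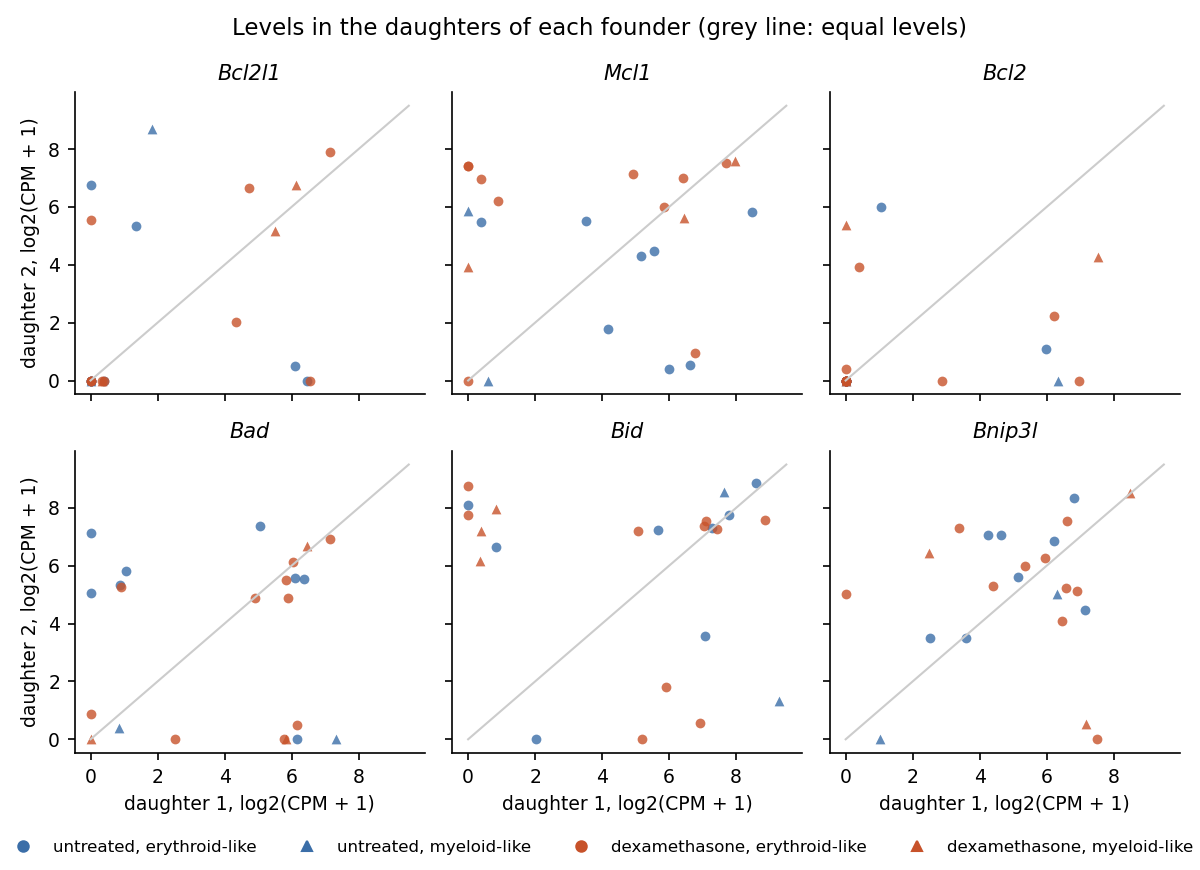
Level in daughter 1 against daughter 2, log2(CPM + 1), for the 6 members tested, 1 point per pair, with the line of equal levels. Many points lie along an axis, where 1 daughter holds the transcript and the other almost none, least often for Bnip3l.

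Lineage classes were described without a test, as they rest on marker genes of the same cells. Bcl2l1 was detected in 11 of 36 erythroid-like and 5 of 10 myeloid-like cells. Its mean log2(CPM + 1) in the erythroid-like pairs ran from 0 over a median of 1.48 to 7.52, and in the 5 myeloid-like pairs it was 0 and 5.27 untreated (pairs 9 and 10) and 6.45, 0.17 and 5.33 with dexamethasone (pairs 6, 7 and 10). The myeloid-like median was thus 3.78 higher, but the erythroid-like range enclosed all 5 values. Bcl2 ran from 0 over 0 to 4.22 in erythroid-like pairs and stood at 0, 3.18, 0, 5.90 and 2.68 in the myeloid-like pairs in the same order. Its median was 2.68 higher there, and equal (0 in both classes) when single cells were compared. It was detected in 5 of 36 and 4 of 10 cells.

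Bid ran from 1.02 over 5.73 to 8.72 in erythroid-like pairs and stood at 5.31, 8.10, 4.39, 3.25 and 3.79 in myeloid-like pairs, a difference of medians of -1.34 (myeloid-like minus erythroid-like). For Bnip3l the erythroid-like values ran from 2.51 over 5.67 to 7.57, and the myeloid-like values of 5.66, 0.51, 3.84, 8.49 and 4.45 reached beyond them at both ends. The difference of medians was -1.21 by pairs and 0.19 by single cells. Mcl1 and Bad differed by less than 1 in their medians (-0.85 and -0.58), although by single cells the difference was -4.68 for Bad, at 24 of 36 erythroid-like against 4 of 10 myeloid-like cells detected. In all, 2 of 6 members tested were at least 1 higher and 2 at least 1 lower in the myeloid-like class, against 10.4% and 46.0% of all 8015 genes. Ranges did not overlap for 0 of 6 members and for 0.799% of genes. Myeloid-like cells had a median of 6924 genes detected, against 8002 in erythroid-like cells; its part was not tested.

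Related genes were described in the same way, by the difference of medians, myeloid-like minus erythroid-like. Of all 8015 genes, 46.0% were at least 1 lower and 10.4% at least 1 higher, against which the counts below are to be read. Of 12 upstream regulators, 10 were at least 1 lower and 0 higher, but Gata1 (-7.80), Klf1 (-7.99) and the erythropoietin receptor gene Epor (-6.27) are markers that formed the classes. Stat5a, which carries the signal of that receptor and was no such marker, had -3.89. Of 23 genes of the apoptosis machinery, 8 were lower and 3 higher, with -4.15 for the effector caspase gene Casp6, -3.38 for the nuclease Dffb and -3.15 for the channel Vdac1. Of 5 other family members Bcl2l13 had -3.17 and Bcl2l12 2.46. Bax (-0.54) and Bnip3 (-0.40), the close relative of Bnip3l, stayed within 1. Of 9 mitophagy genes 4 were lower and 1 higher, led by Sqstm1 (-2.63) and Pink1 (1.76). Reads of Bcl2l13 may include those of Bid, which it overlaps.

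The adult globins (Hba-a1, Hba-a2, Hbb-bs and Hbb-bt) served as a scale of erythroid maturation within the 18 erythroid-like pairs. Their summed level ran from 2.82 over 484 to 9467 CPM. Untreated pairs lay higher, with a median log2(CPM + 1) of 10.35 against 8.40, and made up 2 of the 9 pairs with less globin and 6 of the 9 with more. Globin level and treatment can therefore not be told apart fully. Spearman's rho with globin was -0.06 for Bcl2l1, 0.03 for Mcl1, -0.12 for Bcl2, -0.28 for Bad, -0.02 for Bid and -0.20 for Bnip3l, and Pearson's r was -0.35, 0.06, -0.24, -0.29, 0.06 and -0.02. These are descriptions over 18 pairs whose values share a library and its depth.

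An absolute rho of 0.5 was reached by 0 of 6 members tested, which 3.27% of 8015 genes did on the positive and 2.36% on the negative side. Bcl2l1 was highest in the pair with the least globin (dexamethasone 8, 7.52), and without the 2 pairs farthest from the median globin level its r was 0.01. The erythroid identity of dexamethasone pair 8 was weak: its cells held 4 and 3 of the 6 erythroid marker genes at 10 CPM or more. Its globin level (log2 1.93) lay below that of every myeloid-like pair, the lowest of which had 3.49 (untreated 10). Bad was detected in 14 of 18 cells of the 9 pairs with less globin and in 10 of 18 of those with more, with medians over pairs of 5.39 and 3.43. Its rho was -0.61 in the 10 dexamethasone pairs and -0.05 in the 8 untreated pairs, a difference that was not tested, and its rho with the library total was 0.68, larger than with globin; the part of depth was not tested. Bak1, which lay under the filter, had a rho of 0.44, with 0 of 18 cells detected at less and 2 of 18 at more globin. Bnip3l was detected in 16 of 18 cells on either side. Beside the members, Epor (rho 0.59), Klf1 (0.52) and Diablo, an antagonist of caspase inhibitors (0.53), were higher with more globin and Bcl2l12 was lower (-0.56). These were 2 of 12 upstream regulators, 1 of 23 machinery genes and 1 of 5 other family members, and 0 of 9 mitophagy genes reached 0.5 either way. Pearson's r was 0.74 for Epor, 0.65 for Klf1, 0.51 for Diablo and -0.62 for Bcl2l12. Without the 2 pairs farthest from the median globin level it was 0.38, 0.22, 0.27 and -0.41.

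**Figure D4:**
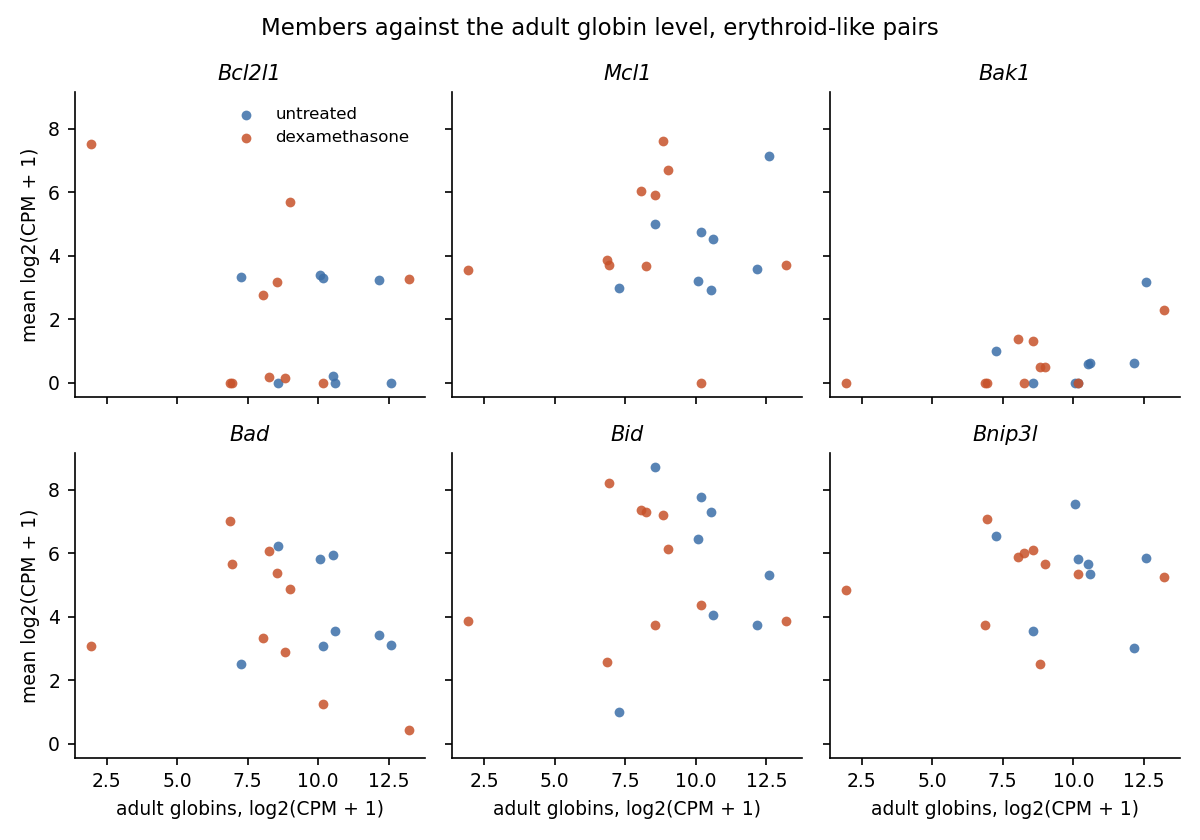
Mean log2(CPM + 1) of 6 members against the adult globin level of the pair in the 18 erythroid-like pairs, by treatment. Spearman's rho lies between -0.20 and 0.03 for Bcl2l1, Mcl1, Bid and Bnip3l, and the highest values of Bak1 belong to the pairs with the most globin.

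The balance set the guards against the pro-apoptotic members. For each cell the summed TPM of Bcl2l1, Mcl1, Bcl2 and Bcl2l2 was divided by that of Bcl2l11, Bad, Bid and Bak1, with 1 added to each sum, on a log2 scale. Bax is not among the 9 members and was left out. Its median log2(CPM + 1) in erythroid-like pairs was 7.08, against 5.73 for Bid. The balance below therefore covers the listed members only. It was below 0 in 29 of 46 cells and above 0 in 17, from -8.80 to 6.04. Over 23 pairs its mean was -1.34 ± 2.24 (SD), with 14 pairs below and 9 above 0. The summed guards had a median of 61.1 TPM per pair and the summed pro-apoptotic members 156 TPM. Sisters lay on opposite sides of 0 in 9 of 23 pairs, and differed by 3.93 ± 3.61 (SD), against 3.81 between cells of different founders.

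By treatment the balance ran from -4.77 over a median of -1.57 to 0.42 untreated, with 3 of 10 pairs above 0, and from -5.45 over -0.36 to 3.01 with dexamethasone, with 6 of 13 above 0. The means were -1.60 ± 1.70 (SD, n = 10) and -1.14 ± 2.63 (SD, n = 13), a difference of 0.45 that is smaller than either SD, and of 0.02 in erythroid-like pairs alone. By lineage the median was -1.05 in 18 erythroid-like pairs and -1.90 in 5 myeloid-like pairs, within overlapping ranges. The order was the opposite by means (-1.49 and -0.82, which lie closer together than the SD of either class), and by medians with Bnip3l counted as pro-apoptotic (-2.14 and -1.96) and with mean log2(CPM + 1) in place of summed TPM (-0.53 and -0.14). Within the erythroid-like pairs the balance had a rho of 0.15 and an r of -0.09 with globin. The medians were -1.46 in the 9 pairs with less and -0.87 in the 9 with more globin.

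Which guard a cell held varied. Of 46 cells, 21 had Mcl1 without Bcl2l1, 6 Bcl2l1 without Mcl1, 10 both and 9 neither. Both were seen in 2 of 20 untreated and 8 of 26 dexamethasone cells, a difference that was not tested. At least 1 guard was detected in 38 cells and at least 1 pro-apoptotic member in 40, with both kinds in 33, guards alone in 5, pro-apoptotic members alone in 7 and neither in 1. Over the 46 cells the level of Mcl1 had a rho of -0.04 with Bcl2l1, -0.09 with Bid, 0.28 with Bcl2 and 0.38 with Bak1. The values with Bak1 and Bcl2 were the largest between any members, with Bak1 detected in 3 cells and Bcl2 in 9. The lowest was -0.22, between Bad and Bak1, and none was tested. In dexamethasone pair 12 all 4 guards were at 0 in both daughters, of which the deeper held 1223692 counts and 428 CPM of Bid.

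**Figure D5:**
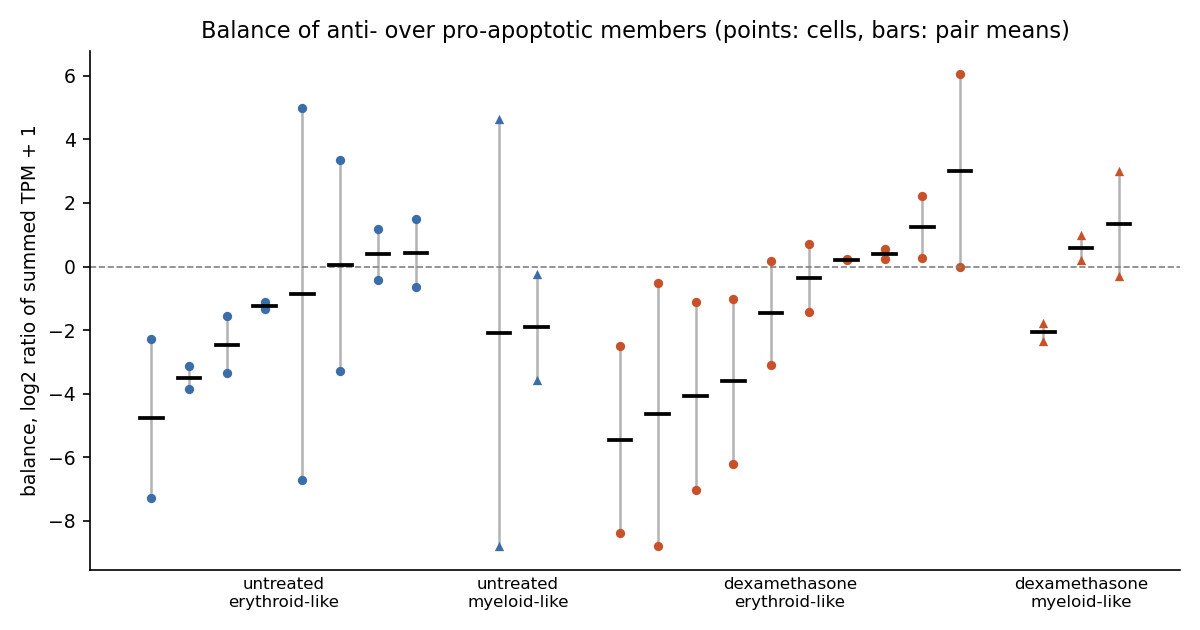
Balance of each cell (points) and its pair mean (bars), with sisters joined by a line, by treatment and lineage class. Pairs above and below 0 occur in both treatments, and single pairs span up to 13.4 units between sisters.

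Genes with levels most like each member across the 18 erythroid-like pairs were listed as a description. They were Ktn1, Ndufaf7 and Abcd3 for Bcl2l1 (rho 0.86, 0.82 and 0.81), Rpia, Arpc3 and Akna for Mcl1 (0.81, 0.80 and 0.78), and Mrpl40, Hsf1 and Aen for Bad (0.82, 0.79 and 0.73). For Bid they were Ifi30, Tmem50a and Pofut1 (0.81, 0.79 and 0.78), and for Bnip3l Guf1, Erlin2 and Mrpl22 (0.77, 0.77 and 0.76). A rho of at least 0.5 with Bcl2l1 was reached by 7.84% of all 8015 genes, with Mcl1 by 5.45%, and with Bad, Bid and Bnip3l by 2.25% to 2.73%. For these 5 members none of the genes listed was another member. The values listed are among the highest of 8015 genes over 18 pairs, so selection alone raises them, and they were not tested.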

How the data were processed

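The authors deposited raw read counts per gene, not normalized, in 1 table for each treatment. STAR 2.4, featureCounts and the build GRCm38 are named in the submitters' processing notes. Library preparation and the settings for strand and shared reads: not given in the sources used here. No molecular identifiers are mentioned, so reads are not molecules. All columns matched 1 sample each and no 2 libraries were identical.

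Members, lists and tests were chosen with earlier results of these data known. CPM used library totals; TPM used exon lengths of GENCODE M21 (found for 49326 genes). Pairs with a library under 100000 counts were left out. Treatments were compared with edgeR 4.0.16 (R 4.3.3) on the summed counts of 2 daughters: TMM, filterByExpr (minimum count 10, total 15), quasi-likelihood test, Benjamini-Hochberg over all genes, threshold 0.05; a standard error is the change divided by the square root of F. Sharing by daughters was tested with 1 term per pair within a treatment, on genes with at least 5 counts in 10 libraries. Lineage, globin and balance got no test. A cell was myeloid-like where the mean log2(CPM + 1) of 6 myeloid markers exceeded that of 6 erythroid ones. Alternatives were RLE scaling, DESeq2 1.42.0, limma 3.58.1, other filters and pseudocounts, plate columns, erythroid-like pairs alone, pair numbers as a block, and leaving out each pair. All 9 members were named, and up to 4 genes of each related list by smallest p, largest difference or rho, with any that passed; 1 gene that this rule selects is not reported here. The scripts were tested on simulated data.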

Additional observations from a re-analysis of the deposited data

Results flagged for a closer look

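Of 10 checks of single pairs among the 10 untreated pairs (9 members and the balance), 1 found a value far from the rest. Bak1 in untreated pair 6 had a mean log2(CPM + 1) of 3.172, and the next highest pair had 1.015. Chance gives such a gap in about 1 of 20 groups.

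The left-out untreated pairs 7 and 12 each held 1 library with depth enough to read members, and 6 values there lay above the level that a count of 0 allows. In pair 7, cell 2, where that level was 13.3 CPM, Mcl1 and Bid each stood at 110.9 CPM and Bnip3l at 128.6 CPM. In pair 12, cell 1, where it was 0.7135 CPM, Bad stood at 39.24 CPM, Bid at 217.4 CPM and Bnip3l at 36.39 CPM.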

How the results depend on the processing

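Among the 5 members tested for dexamethasone, 0 passed under any alternative run, and 0 genes were called except with low-count genes kept (113 genes). Signs were the opposite of the reported ones for Bcl2l1 with limma (0.80), with plate column set as a covariate (0.045), in erythroid-like pairs alone (0.75), within columns 1 to 4 (1.47, an alternative chosen after seeing the data) and without untreated pair 10 (1.08); for Bad with limma (0.012) and within columns 5 to 7 (0.065); for Bid in erythroid-like pairs alone (0.16) and within columns 1 to 4 (0.25); and for Bnip3l in erythroid-like pairs alone (-0.0013). Leaving out 1 pair at a time gave 0 called genes each time, and ranges of -0.90 to 1.08 for Bcl2l1, 0.83 to 1.56 for Mcl1, -0.43 to 0.14 for Bad, -0.69 to -0.15 for Bid and 0.09 to 0.97 for Bnip3l. Bad also turned in sign without untreated pair 10 (0.011) or 13 (0.14), or dexamethasone pair 7 (0.025), 9 (0.017) or 12 (0.022). Pair numbers were treated as names only, as the labels give them no meaning. Deviations of pairs with the same number correlated from -0.13 to 0.17, and 1 of 10 numbers matched best with itself. Each value compares single founders, which differ widely, so it cannot show whether a number marks a shared animal or day. With the replicate block 0 genes were called, and Bcl2l1 (1.66) and Bad (0.013) turned in sign. Genes shared by daughters numbered 651 with limma, 158 in erythroid-like pairs and 93 within a plate column, against 271, with 0 members called in each. By lineage, 2 members in place of 4 differed by at least 1 with a pseudocount of 10 or by single cells, and by globin 2 in place of 0 (Bad and Bak1) passed an absolute rho of 0.5 in dexamethasone pairs alone.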
